A study of Mus musculus with 6 samples.

Results

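Metallothioneins and the transporters that move zinc, copper and manganese were followed through samples labelled as mouse hepatocytes in 3 groups. The 9 genes, of 48432 in the deposited table, were chosen by name and matched to the table through their Ensembl identifiers: the metallothioneins Mt1 and Mt2, the ZIP importers Slc39a14, Slc39a4 and Slc39a5, the ZnT exporters Slc30a1 and Slc30a10, the copper pump Atp7b and the copper-carrying ferroxidase Cp. Earlier results of these data were known when these genes were chosen. All mice were of the FVB strain. The groups were adults fed a diet with DDC (an agent that blocks haem synthesis, causes porphyrins to build up and injures the liver) for 4 weeks, embryos of day 18 (E18) and adults on normal chow, with 2 samples each. Each E18 sample pooled the livers of about 8 embryos. Nothing in the labels tells whether the adult samples are separate animals, so p-values measure only the spread between these samples, which may be technical. No age is given for the adults. Values are TPM, a share of all transcripts scaled to 1000000 and already divided by transcript length. Levels of different genes can thus be set side by side, but only roughly. A difference between the 2 normal fed samples that varies with exon length, given below, limits this. The depth behind each value is unknown, since read counts are not part of the table. Samples carry the numbers 0 and 1 within their group, as in the table's columns.

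Metallothioneins are small cysteine-rich proteins of the cytosol that bind zinc and copper, and in the liver they act as the main buffer and store of both metals. Their genes are switched on by the zinc-sensing transcription factor MTF1, which binds short metal response elements, and also by glucocorticoids, inflammatory cytokines and oxidative stress. ZIP proteins carry zinc into the cytosol and ZnT proteins carry it out, although some members of both families mainly move manganese or iron. The liver excretes surplus copper and manganese into bile, and loads copper onto ceruloplasmin, the product of Cp, before that protein is secreted into plasma.

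Mt1 and Mt2 lie side by side on mouse chromosome 8, and their promoters are shown because the 2 genes were high and low in the same groups; that of Slc30a1, a further known MTF1 target of the mouse, is shown beside them. Mt2 (ENSMUSG00000031762.6) spans chr8:94172664-94173568 and Mt1 (ENSMUSG00000031765.7) spans chr8:94179082-94180327 on GRCm38, both on the plus strand and 5513 bases apart. Mt3 and Mt4 lie before them in the same cluster. The sequences below are from RefSeq on GRCm38.p6, run 5′ to 3′ from 250 bases before RefSeq's start of the gene, which is not the GENCODE start given above, and all lie on the plus strand. Capitals mark matches to the core of the metal response element, searched as TGCACNC and TGCGCNC on both strands.
Mt1 promoter, chr8:94178839-94179138: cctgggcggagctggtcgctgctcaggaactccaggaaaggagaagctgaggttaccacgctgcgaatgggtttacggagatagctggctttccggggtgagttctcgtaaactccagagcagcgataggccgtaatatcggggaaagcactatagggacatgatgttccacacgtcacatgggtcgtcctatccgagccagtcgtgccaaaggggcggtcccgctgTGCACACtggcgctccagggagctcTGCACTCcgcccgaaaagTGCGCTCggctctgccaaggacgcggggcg
Mt2 promoter, chr8:94172368-94172667: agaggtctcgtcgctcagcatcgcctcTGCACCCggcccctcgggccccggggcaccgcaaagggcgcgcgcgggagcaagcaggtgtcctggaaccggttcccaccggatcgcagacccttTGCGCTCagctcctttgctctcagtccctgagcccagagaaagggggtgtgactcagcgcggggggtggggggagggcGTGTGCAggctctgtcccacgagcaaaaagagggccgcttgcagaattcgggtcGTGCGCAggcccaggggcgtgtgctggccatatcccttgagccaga
Slc30a1 promoter, chr1:191906531-191906830: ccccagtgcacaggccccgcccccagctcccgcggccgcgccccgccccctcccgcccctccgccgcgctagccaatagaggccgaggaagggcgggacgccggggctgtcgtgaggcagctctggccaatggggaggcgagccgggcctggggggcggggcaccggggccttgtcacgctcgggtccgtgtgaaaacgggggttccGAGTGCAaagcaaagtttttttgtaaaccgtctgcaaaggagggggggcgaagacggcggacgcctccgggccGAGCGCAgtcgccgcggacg

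The Mt1 window held 3 matches to the core, the Mt2 window 4 and the Slc30a1 window 2. Of 32851 mouse promoter windows of 300 bases, 7.11% held at least 2 matches, 1.97% at least 3 and 0.517% at least 4. The Slc30a10 window held 3 matches, of which 2 overlap on opposite strands, and the Atp7b window held 1. One of the 2 windows of Slc39a5 held 1 match and the other none, and neither of the 2 windows of Cp held any. Slc39a14 and Slc39a4 have no entry in the promoter table. The core of the antioxidant response element, searched as TGACNNNGC on both strands, was found 1 time in the Mt2 and Slc30a1 windows and 2 times in the second Slc39a5 window, and in no other window of a member. Of all windows, 12.4% held at least 1 match and 0.986% at least 2. Only these windows of 300 bases were searched, so sites of either kind beyond them, or near other starts of a gene, are not counted. A match is a run of letters and does not show that a factor binds there.

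The groups differed in markers of cell types and the 2 normal fed samples differed from each other, and both bear on the values that follow. Summed hepatocyte markers lay between 16027 and 17486 TPM in DDC fed, between 6270 and 9839 TPM in E18 and between 21050 and 29247 TPM in normal fed samples. At an adjusted p under 0.05, 1 of these 10 markers rose and 2 fell with DDC, and 1 rose and 7 fell at E18. A marker that did not pass may still have differed between the groups. Cyp2e1 alone was at 727 and 903 TPM in DDC fed and at 8193 and 4389 TPM in normal fed samples. Of the 10, 7 were at 10 TPM or more in all 6 samples, and Serpina1c was listed at 0 in both normal fed samples. Summed markers of macrophages lay between 774.5 and 942 TPM in DDC fed, between 3307 and 4130 TPM in E18 and between 79.4 and 81.1 TPM in normal fed samples. All 8 macrophage, 6 endothelial and 8 stellate cell markers tested rose both in DDC fed and in E18 samples, and with the scaling alternatives at least 7, 5 and 7 of them did, and of 5 cholangiocyte markers 2 rose in DDC fed and 4 in E18 samples. Summed neutrophil markers reached 55908 to 66560 TPM and erythroid markers 5588 to 11025 TPM at E18, against at most 2.75 and 8.68 TPM in DDC fed and 0.188 and 26.2 TPM in normal fed samples. In bulk samples, fewer cells of a type and less RNA per cell cannot be told apart. Tests ran on the 14307 genes that reached 1 TPM in 2 or more samples. Across them, sample 0 and sample 1 differed by a median of 0.125 log2 units in DDC fed, 0.17 in E18 and 0.37 in normal fed samples, sign ignored. Of the 9 members, 8 were lower in normal fed sample 1 than in sample 0, as were 69.1% of the genes tested, and the difference fell with exon length across genes (Spearman rho = -0.39 over 14273 genes, which are not independent replicates).

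The first comparison asks which metal-handling genes differ in adults after the DDC diet. The metallothioneins, the zinc importer Slc39a4 and Cp were higher in DDC fed than in normal fed samples, together with a smaller difference in Atp7b. With a limma fit over all genes and Benjamini-Hochberg adjustment, 5 of the 9 members rose and none fell at an adjusted p under 0.05. Of all genes tested 37.3% passed, 34.2% higher and 3.07% lower. The median log2 fold change of all genes was 0.45, against 1.06 for the members. Because the members were chosen with earlier results of these data known, this contrast is given as a description only. All 9 members were tested, Slc39a5 only because of its level at E18. With median-ratio scaling 4 members rose and 1 fell, with 20.5% of all genes higher and 11.6% lower; quantile normalization and the exon-length correction gave the members the same split. The count was 3 without either DDC fed or either E18 sample, with the compared groups fitted alone and with no filter on low values.

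The second comparison asks how fetal samples differ from adults. Relative to normal fed adults, Mt1, Mt2, Slc30a10 and Atp7b rose and Cp fell, and Slc39a5, which entered the tests only through its E18 level, was higher. That makes 6 of 9 members past the threshold, or 5 of the 8 members other than Slc39a5, with 4 higher and 1 lower. The background was high, since 75.7% of all genes tested passed, 63.0% higher and 12.7% lower, and the members' share is not above it. The median log2 fold change was 1.06 over all genes tested and 0.56 over the 8 members other than Slc39a5. The split of directions depended on the scaling: of the 8 members, 2 rose and 4 fell with median-ratio scaling and with the exon-length correction, and 2 rose and 3 fell with quantile normalization. Neither Slc30a10 nor Atp7b passed in any of these 3 settings. Median-ratio scaling left 38% of all genes higher and 31.8% lower. Without E18 sample 1 the count was 3. This comparison shares the normal fed samples with the first, so they are not independent of each other.

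DDC fed adults were also set against E18 directly. Slc39a4 and Cp were higher and Slc39a5 and Slc30a10 lower in DDC fed samples, 4 of 9 members, or 3 of 8 without Slc39a5. Of all genes tested 64.7% passed, 17.7% higher and 47.0% lower in DDC fed samples. With median-ratio scaling 4 members were higher and 2 lower, against 27.9% and 34.1% of all genes. The members' count was 7 without either normal fed sample and with the compared groups fitted alone.

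**Figure D1:**
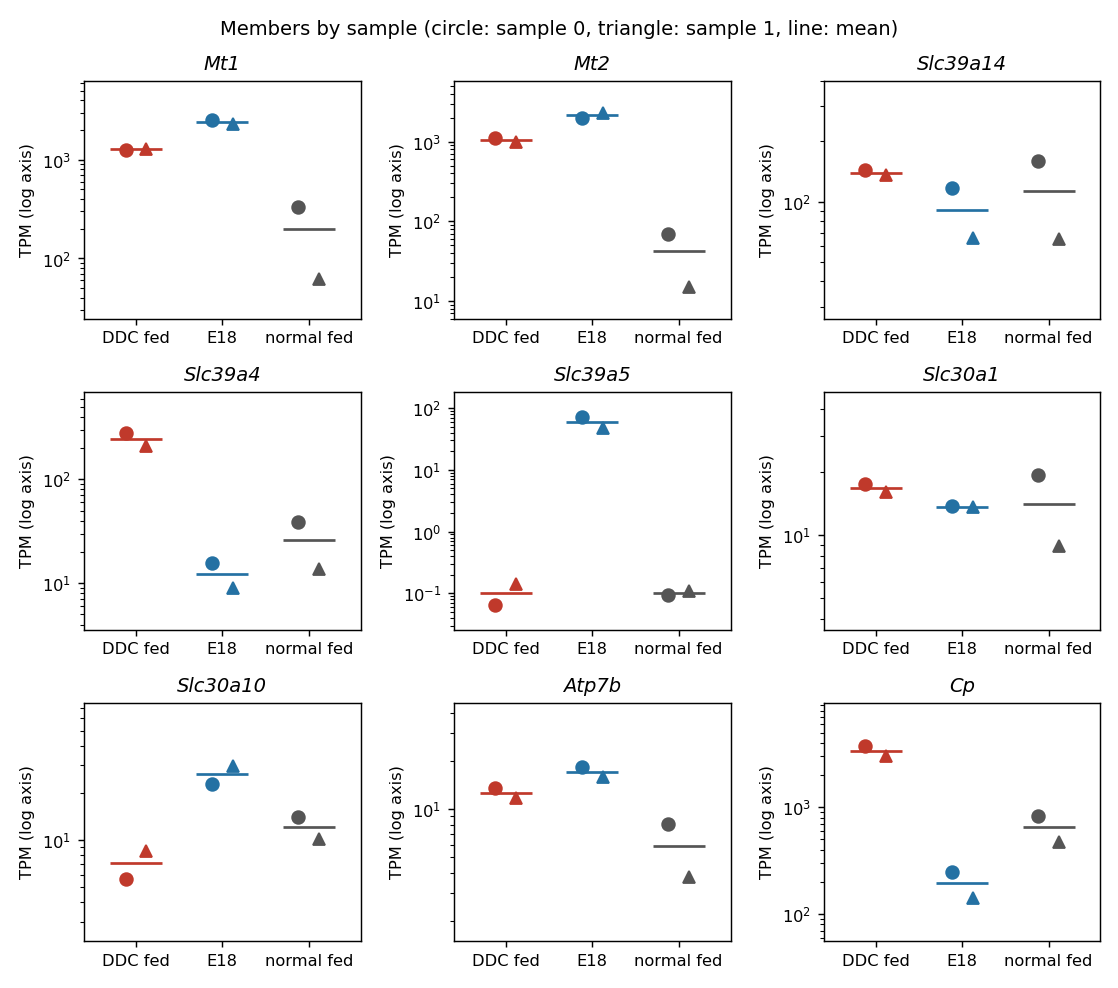
TPM of each member (log axis) in the 2 samples of each group, with circles for sample 0, triangles for sample 1 and a line at the mean. Both metallothioneins lie at 997 TPM or more in all DDC fed and E18 samples and at 333 TPM or less in normal fed samples, while Slc39a4 and Cp are highest in DDC fed samples and Slc39a5 is above 1 TPM at E18 alone.

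Mt1 was at 1261 and 1298 TPM in DDC fed samples, at 2515 and 2323 TPM at E18 and at 333 and 61.3 TPM in normal fed samples. Mt2 was at 1094 and 997 TPM in DDC fed samples, at 1998 and 2297 TPM at E18 and at 69.0 and 14.99 TPM in normal fed samples. For both genes every DDC fed and E18 sample lay above every normal fed sample, and E18 lay above DDC fed. The log2 fold change of Mt2 was 4.97 ± 0.62 (SE) with DDC (adjusted p = 0.00127, limma) and 6.002 ± 0.62 at E18 (adjusted p = 0.000134). That of Mt1 was 3.15 ± 0.70 with DDC (adjusted p = 0.0135) and 4.07 ± 0.70 at E18 (adjusted p = 0.00167). The rise of Mt1 with DDC did not pass when the DDC fed and normal fed groups were fitted alone (adjusted p = 0.0705), without either DDC fed or either E18 sample (from 0.0653 to 0.0814) or with no filter on low values (0.0688). All 8 macrophage, 6 endothelial and 8 stellate cell markers tested rose in the same comparisons as the metallothioneins, and their part in these values was not tested.

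The size of these rises depended on which normal fed sample they were set against. The 2 normal fed samples differed by 2.42 on the log2 scale for Mt1 and 2.13 for Mt2, more than in 99.7% of the genes tested, whereas the DDC fed samples differed by 0.04 and 0.13. Without normal fed sample 0 the log2 fold change with DDC was 4.36 for Mt1 and 6.03 for Mt2, and without normal fed sample 1 it was 1.94 and 3.90. At E18 it was 5.28 and 7.07 without normal fed sample 0, and 2.85 and 4.94 without sample 1. All 8 values passed the threshold. Setting each sample's median ratio to the others equal, a scaling that brings the median fold change of all genes to 0.00 with DDC and 0.09 at E18, left the DDC rise at 2.48 for Mt1 and 4.31 for Mt2 and the E18 rise at 2.87 and 4.82, all past the threshold.

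Together Mt1 and Mt2 made up 0.236% and 0.23% of all transcripts in DDC fed samples, 0.451% and 0.462% at E18, and 0.0402% and 0.00763% in normal fed samples. Their balance differed as well. Mt1 was 1.15 and 1.30 times Mt2 in DDC fed samples and 1.26 and 1.01 times Mt2 at E18, against 4.83 and 4.09 times in normal fed samples. The ratio in each normal fed sample was thus above that in each other sample, although the 2 normal fed samples differed 5-fold in the level of the genes. The ratio is given as a description and was not tested. The shortest protein-coding transcripts of the 2 genes are 549 and 388 bases long and match at 74.0% of 273 aligned bases, with a longest identical run of 17 bases. Between DDC fed and E18 samples the difference was -0.92 ± 0.70 for Mt1 (95% interval -2.59 to 0.76, adjusted p = 0.286, limma) and -1.04 ± 0.62 for Mt2 (-2.52 to 0.45, adjusted p = 0.184). Fitted on those 2 groups alone, both passed (adjusted p = 0.00704 and 0.00461), with the spread between the normal fed samples left out of the fit.

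**Figure D2:**
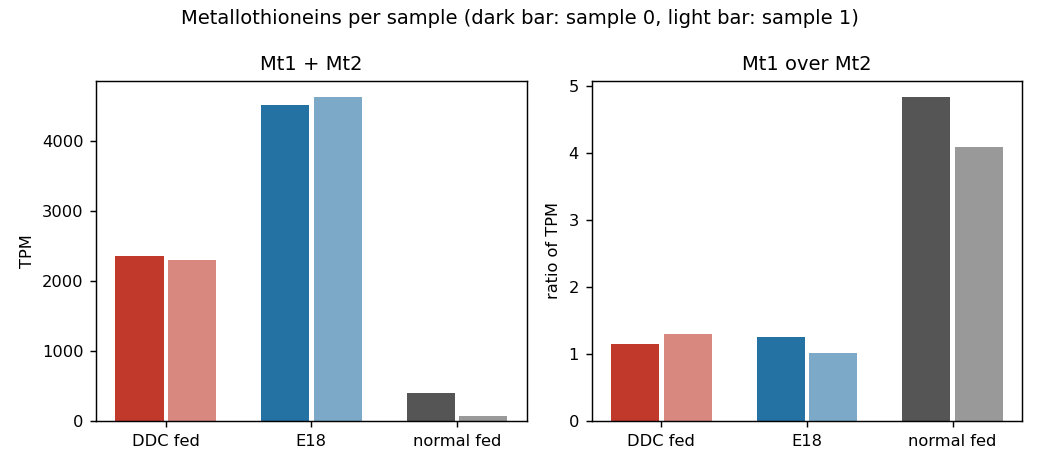
Sum of Mt1 and Mt2 in TPM (left) and the ratio of Mt1 to Mt2 (right) in each sample, with dark bars for sample 0 and light bars for sample 1. The sum is 2295 to 2355 TPM in DDC fed, 4513 to 4621 TPM in E18 and 76.3 to 402 TPM in normal fed samples, and the ratio is above 4 in normal fed samples alone.

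The ZIP importers went different ways. Slc39a4, which takes up dietary zinc in the intestine, was at 277 and 208 TPM in DDC fed samples, at 15.7 and 8.90 TPM at E18 and at 38.5 and 13.8 TPM in normal fed samples. The DDC fed values lay above all others, and the E18 values overlapped those of normal fed samples. With DDC it rose by 3.32 ± 0.49 on the log2 scale (adjusted p = 0.00245, limma), and by 4.03 and 2.61 without normal fed sample 0 and 1. Against E18 it was higher by 4.23 ± 0.49 in DDC fed samples (adjusted p = 0.000335). At E18 against normal fed samples its log2 fold change was -0.91 ± 0.49 (adjusted p = 0.129), and -2.03 with median-ratio scaling, where it passed (adjusted p = 0.0048).

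Slc39a14, the importer of zinc, manganese and free iron that hepatocytes induce in inflammation, was at 144 and 136 TPM in DDC fed samples, at 117 and 66.2 TPM at E18 and at 160 and 65.2 TPM in normal fed samples. The DDC fed values fell between the 2 normal fed values, and so did the E18 values. Its log2 fold change was 0.45 ± 0.45 with DDC (95% interval -0.63 to 1.53, adjusted p = 0.472, limma) and -0.22 ± 0.45 at E18 (-1.30 to 0.86, adjusted p = 0.678). The DDC value was 1.09 and passed without normal fed sample 0, and was -0.19 without sample 1. With median-ratio scaling the E18 value was -1.41 and passed (adjusted p = 0.0147). The interval with DDC holds a rise of the size seen for Atp7b.

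Slc39a5, an importer known from the basolateral membrane of mouse intestine and pancreas, was at 72.3 and 47.7 TPM at E18, against 0.0944 and 0.109 TPM in normal fed samples, with 0.0644 and 0.141 TPM in DDC fed samples. The E18 samples stood apart from all 4 adult samples, which were near 0 without being exactly 0. The log2 fold change was 5.76 ± 0.23 at E18 against normal fed samples, and the added 1 TPM keeps this value below the ratio of the means. The gene reached 1 TPM in the 2 E18 samples only and so had to differ to be tested, and this value is given as a description. The table lists 80 genes of 100 TPM or more in some sample at 0 in both samples of another group, so whether low values such as these are levels or failed estimates cannot be told from the table. With DDC the log2 fold change was 0.00 ± 0.23 (95% interval -0.54 to 0.54). The gene, at chr10:128395931-128401229 on the minus strand of GRCm38, overlaps Ankrd52, which was at 23.5 and 23.2 TPM at E18 and at 7.78 and 3.45 TPM in normal fed samples, and whether the counting used strand is not stated.

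The exporters were among the members at low levels. Slc30a1, the zinc exporter of the plasma membrane, was at 17.6 and 16.1 TPM in DDC fed samples, at 13.8 and 13.6 TPM at E18 and at 19.3 and 8.86 TPM in normal fed samples. The DDC fed and E18 values lay between the 2 normal fed values. Its log2 fold change was 0.33 ± 0.34 with DDC (95% interval -0.48 to 1.15, adjusted p = 0.474, limma) and 0.06 ± 0.34 at E18 (-0.76 to 0.87, adjusted p = 0.89). Without normal fed sample 0 the values were 0.86 with DDC and 0.58 at E18, and without sample 1 they were -0.19 and -0.47, of which all but the -0.19 passed. Likewise, with median-ratio scaling the E18 value was -1.06 and passed (adjusted p = 0.0085). Mtf1, the zinc sensor known to drive Slc30a1 and both metallothioneins, was at 9.06 and 8.93 TPM in DDC fed, 17.3 and 16.9 TPM in E18 and 10.6 and 10.1 TPM in normal fed samples.

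Slc30a10, which exports manganese and is expressed on the bile canaliculus, was at 5.66 and 8.53 TPM in DDC fed samples, at 22.6 and 29.9 TPM at E18 and at 14.1 and 10.2 TPM in normal fed samples. It overlaps Gm2061, which was at 0.314 and 0.506 TPM in DDC fed, 2.99 and 1.71 TPM in E18 and 1.05 and 1.31 TPM in normal fed samples. Mt2, Slc30a1 and Cp overlap other genes as well, and the part of such overlaps in the values was not tested. For Slc30a10 the 3 groups did not overlap, with E18 the highest and DDC fed the lowest. DDC fed samples were lower than E18 by a log2 fold change of -1.76 ± 0.28 (adjusted p = 0.00154, limma), which passed in each of the 17 other settings tried. Against normal fed samples, the log2 fold change with DDC was -0.70 ± 0.28 (adjusted p = 0.092), and -1.33 with median-ratio scaling (adjusted p = 0.00717). At E18 it was 1.06 ± 0.28 (adjusted p = 0.0115), which equals the median of all genes tested, and -0.08 with median-ratio scaling; it did not pass without either E18 sample (adjusted p = 0.0507 and 0.12).

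**Figure D3:**
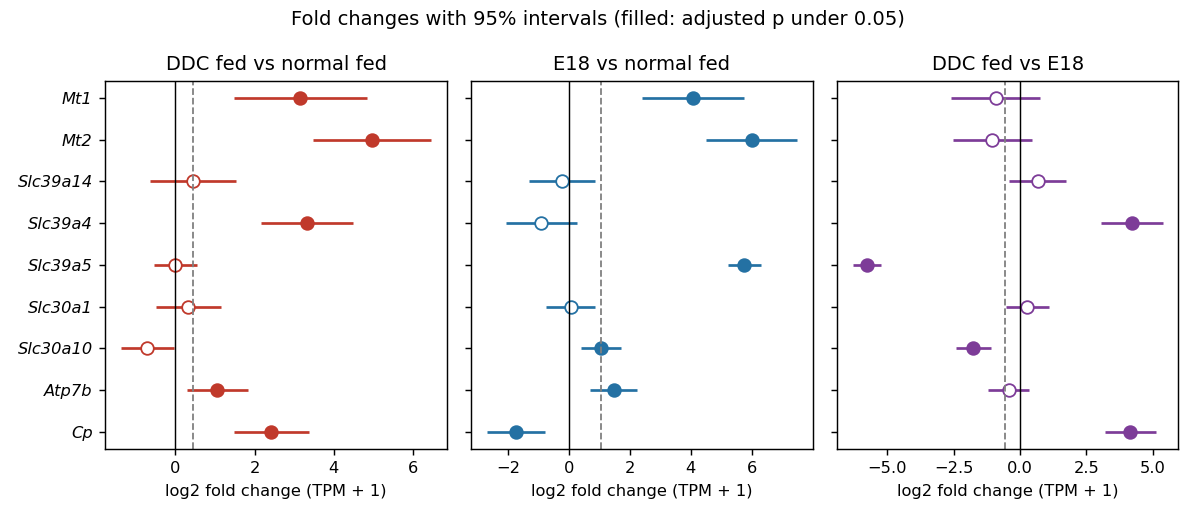
Log2 fold change of each member on log2(TPM + 1) with its 95% interval in the 3 comparisons, where filled circles have an adjusted p under 0.05 and the dashed line is the median of all genes tested. With DDC the 4 largest values are those of Mt2, Slc39a4, Mt1 and Cp, all to the right of the dashed line at 0.45; at E18 the values of Slc30a10 and Atp7b lie near the line at 1.06.

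The copper genes differed in direction. Atp7b, the copper pump that loads ceruloplasmin and exports copper into bile, was at 13.6 and 11.7 TPM in DDC fed samples, at 18.5 and 15.9 TPM at E18 and at 8.01 and 3.73 TPM in normal fed samples. All DDC fed and E18 values lay above the normal fed ones. The log2 fold change was 1.06 ± 0.32 with DDC (adjusted p = 0.0415, limma) and 1.47 ± 0.32 at E18 (adjusted p = 0.00511). With median-ratio scaling these were 0.48 (adjusted p = 0.179) and 0.40 (adjusted p = 0.189), and neither passed. The DDC value passed in 7 of the 17 other settings, and not without either DDC fed or either E18 sample; the E18 value did not pass without either E18 sample (adjusted p = 0.0752 and 0.0562).

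Cp, the ferroxidase that carries most copper of plasma and is an acute phase protein, was at 3754 and 3030 TPM in DDC fed samples, at 250.3 and 140.4 TPM at E18 and at 831 and 474 TPM in normal fed samples. The 3 groups did not overlap, and DDC fed samples were the highest. It was the most abundant of the 9 members in DDC fed and in normal fed samples, and the third at E18 after Mt1 and Mt2. The log2 fold change was 2.42 ± 0.40 with DDC (adjusted p = 0.00397, limma), -1.74 ± 0.40 at E18 (adjusted p = 0.00627) and 4.16 ± 0.40 for DDC fed against E18 samples (adjusted p = 0.00014). The rise with DDC passed in each of the 17 other settings, from 1.75 to 2.83, while the fall at E18 did not pass without E18 sample 1 (-1.32, adjusted p = 0.0748). Macrophages also express Cp, and all 8 macrophage markers rose in DDC fed samples. At E18 the summed macrophage markers were higher than in DDC fed samples, with 5 of the 8 higher and 1 lower at E18. Lyz2 alone made up 2674 and 3352 TPM of the E18 sums of 3307 and 4130 TPM. The part of macrophages in the Cp values was not tested.

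The order of levels differed between the groups. In DDC fed samples Cp led, followed by Mt1, Mt2, Slc39a4 and Slc39a14, and the ranges of Mt1 and Mt2 did not meet. At E18 Mt1 and Mt2 led, again with ranges that did not meet, followed by Cp, Slc39a14 and Slc39a5, of which Slc39a14 and Slc39a5 overlapped. In normal fed samples Cp led, then Mt1, Slc39a14, Mt2 and Slc39a4, where the last 3 and Mt1 overlapped with their neighbours. Mt1 and Mt2 were above 99.1% or more of the genes tested in DDC fed samples and above 99.7% at E18, against 94.7% and 82.5% in normal fed samples. Slc30a1, Slc30a10 and Atp7b stayed below 30 TPM in all 6 samples.

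Other genes of metal handling were read from a wider list of 48 that holds no members, of which 42 were tested. With DDC 16 rose and none fell, or 38.1% against the 37.3% of all genes. At E18 20 rose and 8 fell, or 66.7% against 75.7%. Between DDC fed and E18 samples 11 were higher and 13 lower in DDC fed samples, or 57.1% against 64.7%. These shares were near or below those of all genes tested. The directions depended on the scaling. With DDC 8 rose and 8 fell with median-ratio scaling, 7 and 5 with quantile normalization, and 9 and 6 with the exon-length correction. At E18 these counts were 11 and 21, 11 and 16, and 9 and 21, so that more fell than rose. Between DDC fed and E18 samples 15 were higher and 7 lower with median-ratio scaling. With DDC the count was 26 without normal fed sample 0 and 7 without either DDC fed sample, and between DDC fed and E18 samples the 24 became 14 and 13 without DDC fed sample 0 and 1 and 15 without E18 sample 1. Mt3 and Mt4, the metallothioneins of brain and stratified epithelium, were below 1 TPM in every sample and were not tested. Of 12 ZIP genes tested, members included, 6 rose with DDC and 6 at E18, and of 8 ZnT genes 1 rose with DDC, and 3 rose and 1 fell at E18. Of 19 copper genes 7 rose with DDC, and 7 rose and 6 fell at E18. Of 5 manganese genes 3 rose with DDC and 4 at E18. The copper gene Heph is counted as higher in both comparisons, here and in the wider list. It reached 1 TPM in E18 samples alone, at 5.41 and 3.24 TPM, and so was tested only through that group. In DDC fed samples it was at 0.83 and 0.62 TPM, and in normal fed samples at 0.099 and 0.025 TPM. With median-ratio scaling 2 ZIP genes rose with DDC, and 4 rose and 4 fell at E18, while 2 ZnT genes fell with DDC and 6 at E18 and none rose. Of the copper genes 5 then rose and 5 fell with DDC, and 5 rose and 12 fell at E18, and of the manganese genes 1 rose with DDC, and 1 rose and 1 fell at E18.

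Among the 7 copper genes that rose with DDC were Steap4 and Steap3, reductases that prepare iron and copper for uptake. Steap4, a reductase known to be induced in inflammation, was at 341 and 268 TPM in DDC fed samples, at 19.8 and 14.6 TPM at E18 and at 89.8 and 32.9 TPM in normal fed samples, the same order of groups as Cp. Its log2 fold change was 2.45 ± 0.45 with DDC (adjusted p = 0.00633, limma) and 4.07 ± 0.45 against E18 (adjusted p = 0.000282). Steap3, the endosomal reductase of iron uptake, was at 39.1 and 36.1 TPM in DDC fed samples, at 82.0 and 93.4 TPM at E18 and at 10.3 and 3.83 TPM in normal fed samples. It had a log2 fold change of 2.38 ± 0.38 with DDC (adjusted p = 0.00362) and 3.58 ± 0.38 at E18 (adjusted p = 0.000156), and so was high where Steap4 was low at E18. Slc31a2, a relative of the copper importer Slc31a1, rose with DDC by 1.03 ± 0.19 (adjusted p = 0.00564) and at E18 by 2.04 ± 0.19 (adjusted p = 6.8e-05), whereas Slc31a1 itself was at 105 and 96.4 TPM in DDC fed and 114 and 85.3 TPM in normal fed samples. The rise of Slc31a2 with DDC was 0.43 and did not pass with median-ratio scaling (adjusted p = 0.131), nor did it without either DDC fed sample (0.0748 and 0.0589).

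Atp7a, the copper pump of most tissues other than hepatocytes, was at 35.2 and 21.7 TPM at E18, against 1.10 and 0.37 TPM in normal fed samples, with a log2 fold change of 4.08 ± 0.31 (adjusted p = 2.7e-05, limma). Atp7a was thus above Atp7b in both E18 samples and below it in all 4 adult samples. Sod3, the secreted copper and zinc superoxide dismutase, was at 12.5 and 10.98 TPM at E18, against 1.02 and 0.37 TPM in normal fed samples, higher by 2.94 ± 0.25 (adjusted p = 4.6e-05). Car2, the zinc enzyme carbonic anhydrase of red cells, was at 653 and 984.5 TPM at E18, against 3.47 and 2.30 TPM in normal fed samples (log2 fold change 7.71 ± 0.27, adjusted p = 1.7e-06), and it stood beside erythroid markers that were all higher at E18 among the 7 tested. Car2 also rose with DDC, at 13.8 and 14.9 TPM after the diet (1.99 ± 0.27, adjusted p = 0.00165), where none of the 7 erythroid markers rose. The part of other cells in these values was not tested.

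Tmem165, a Golgi protein of manganese supply, was at 23.1 and 23.6 TPM in DDC fed samples, at 79.4 and 82.1 TPM at E18 and at 9.15 and 8.14 TPM in normal fed samples. It rose by 1.34 ± 0.18 with DDC (adjusted p = 0.00172, limma) and by 3.08 ± 0.18 at E18 (adjusted p = 8.6e-06). The ZIP protein Slc39a11 rose with DDC by 1.79 ± 0.34 (adjusted p = 0.00665) and was at 79.2 and 69.0 TPM in DDC fed and 29.7 and 14.2 TPM in normal fed samples, and did not pass without DDC fed sample 0 (0.0528). Sco2, which hands copper to cytochrome oxidase, was higher in DDC fed than in E18 samples by 1.95 ± 0.18 (adjusted p = 0.000128), and Hrg, a plasma glycoprotein that binds zinc and copper, by 2.76 ± 0.40 (adjusted p = 0.000946).

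**Figure D4:**
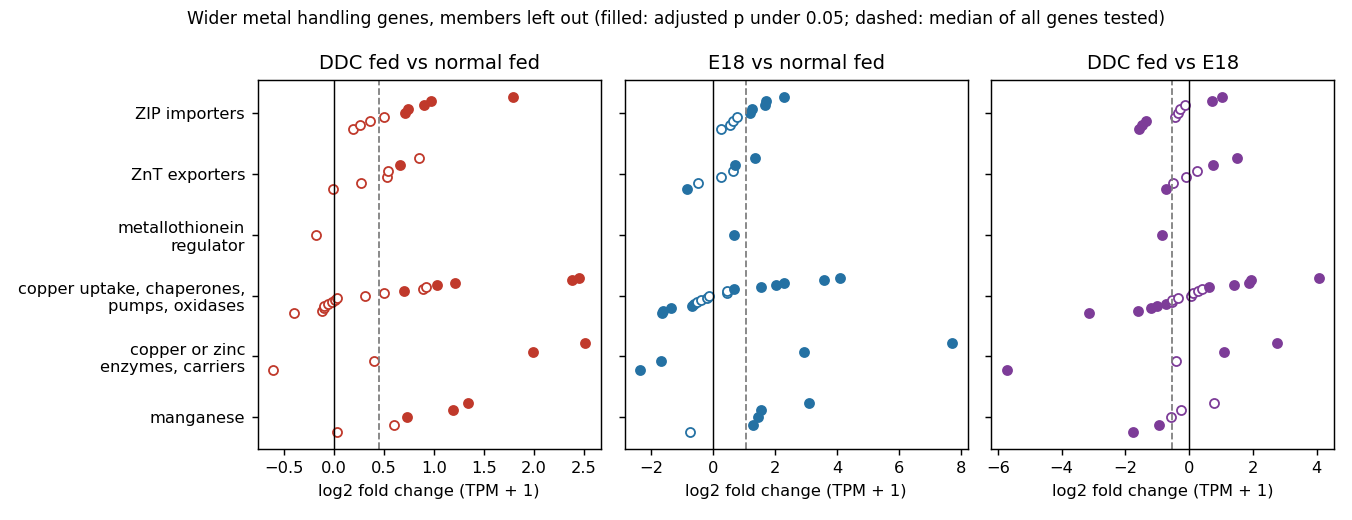
Log2 fold change on log2(TPM + 1) of the 42 wider metal-handling genes tested, by role, in the 3 comparisons, where filled circles have an adjusted p under 0.05 and the dashed line is the median of all genes tested. With DDC the largest values are those of Sod3 at 2.51, Steap4 at 2.45 and Steap3 at 2.38, and no gene that passed lies below 0 on this scale, while with median-ratio scaling 8 of those that passed do.

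**Figure D5:**
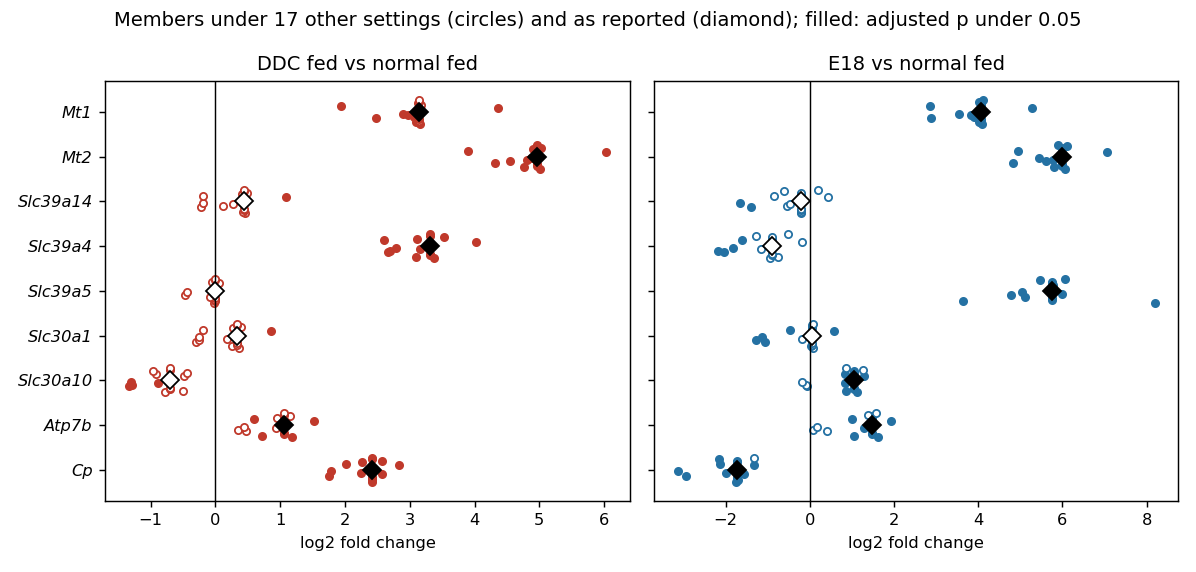
Log2 fold change of each member with DDC (left) and at E18 (right) against normal fed samples, as reported (diamond) and in 17 other settings (circles), filled where the adjusted p was under 0.05. With DDC Mt2, Slc39a4 and Cp stay filled in all 17, Mt1 in 11 and Atp7b in 7, while Slc39a14, Slc39a5 and Slc30a1 have circles on both sides of 0.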

How the data were processed

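Poly(A) RNA of hepatocytes was sequenced from 6 samples as stranded libraries, per the labels' protocols. The deposited table gives TPM for 48432 genes, and each column sums to 1000000. The submitters' processing notes name Trimmomatic, STAR 2.4.2a, Picard 1.119, HTSeq, DESeq2, Cuffdiff 2.2.1 and GRCm38 (mm10) with no roles; the tool that made the table is not given in the sources used here. Columns are numbered 0 and 1 and titles 1 and 2, and columns were therefore placed in groups without choosing a sample. Identifiers were matched to GENCODE M21 without their version (48053 matched).

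Genes that reached 1 TPM in 2 or more samples were tested on log2(TPM + 1) with limma 3.58.1 in R 4.3.3, with 1 mean per group over all 6 samples, 3 residual degrees of freedom and a mean-variance trend. Two-sided p-values were Benjamini-Hochberg adjusted over 14307 genes, with a threshold of 0.05. The fit was tested on simulated data. Settings varied were the pseudocount, filter, scaling, exon-length correction, replicate block, variance prior, groups fitted and each sample left out. A sample left alone in its group is assumed to vary like the others. Named were all members and the 3 genes closest to each member. Per comparison, up to 6 other metal genes with the smallest adjusted p were also named. They were taken from genes with an absolute log2 fold change of at least 1 and 10 TPM in the higher group. Mtf1, Mt3, Mt4, Slc31a1, Heph and, with DDC, Sod3 were named after their values were seen. The members and lists were chosen with earlier results of these data known.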

Additional observations from a re-analysis of the deposited data

How the results depend on the processing

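Of the 9 members in 3 comparisons, values were recomputed in 17 other settings: 380 kept direction and side of the threshold, 28 newly passed, 24 no longer passed and 27 changed sign. With DDC against normal fed samples 3 members passed with no filter and with the compared groups alone, and 3 to 7 with 1 sample left out; 7 to 26 wider genes passed then, with 26 without normal fed sample 0 and 7 without either DDC fed sample. At E18 against normal fed samples 3 to 8 members and 21 to 35 wider genes passed with 1 sample left out, the 3 without E18 sample 1. Between DDC fed and E18 samples 7 members passed with the compared groups alone, 4 to 7 with 1 sample left out, and 13 to 30 wider genes.

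Sign changes with DDC against normal fed samples were of genes that did not pass as reported. Slc39a14 was at -0.22 with median-ratio scaling, at -0.19 with the exon-length correction and from -0.19 to 1.09 with 1 sample left out. Slc30a1 was at -0.30 with median-ratio scaling, -0.25 with quantile normalization, -0.26 with the exon-length correction and from -0.19 to 0.86 with 1 sample left out. Slc39a5 was at -0.018 with a pseudocount of 0.1, -0.078 with median-ratio scaling, -0.47 with quantile normalization, -0.022 rescaled without the 50 highest genes, -0.44 with the exon-length correction and from -0.050 to 0.051 with 1 sample left out. At E18 Slc30a1 was at -1.06, -1.28, -0.18 and -1.14 with median-ratio scaling, quantile normalization, rescaling without the 50 highest genes and the exon-length correction, and from -0.47 to 0.58 with 1 sample left out. Slc30a10 was at -0.078, -0.098 and -0.19 with median-ratio scaling, quantile normalization and the exon-length correction, and Slc39a14 from -0.86 to 0.42 with 1 sample left out. Atp7b in DDC fed against E18 samples was at 0.081, 0.27 and 0.27 with the same 3 settings. The cause of these changes was not tested. Median-ratio scaling and quantile normalization moved the median log2 fold change of all genes to 0.00 and -0.09 with DDC, where it was 0.45 unscaled, and to 0.09 and -0.12 at E18, where it was 1.06.

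With the replicate block 5, 7 and 4 members and 19, 33 and 25 wider genes passed in the 3 comparisons. The column numbers are not given as a pairing: between groups, the difference of sample 0 and sample 1 correlated at 0.23, 0.14 and 0.06 across genes. Depth being unknown, no floor can be set for values near 0, such as those of Slc39a5 in adults.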

Other observations

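The genes whose profile was closest to each member were found by the Euclidean distance of centred log2(TPM + 1) over the 6 samples. Candidates were 8042 tested genes with a mean of at least 10 TPM. Predicted genes (Gm and Rik names) and genes without a symbol were left out. Closest to Mt2 were the collagen gene Col3a1 (distance 1.36), the phagocyte oxidase subunit Cybb (1.41) and the galectin Lgals3 (1.52). Col3a1 was at 40.4 and 35.2 TPM in DDC fed, 76.8 and 75.5 TPM in E18 and 0.486 and 0.259 TPM in normal fed samples. Closest to Mt1 were Pgd, an enzyme of the pentose phosphate pathway (0.86), the endothelial receptor subunit Eng (0.87) and the thrombin receptor F2r (0.91). Pgd was at 168 and 123 TPM in DDC fed, 215 and 235 TPM in E18 and 30.2 and 9.77 TPM in normal fed samples. Several of these genes mark cells other than hepatocytes, and their levels are given as values only.

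Closest to Cp were Tm6sf2 (0.34), the triokinase gene Tkfc (0.39) and Steap4 (0.54). Tkfc was at 604.5 and 452.5 TPM in DDC fed, 32.4 and 24.0 TPM in E18 and 154 and 75.1 TPM in normal fed samples. Closest to Slc39a4 were Tmem176b (0.77), Gstm4 (0.81) and H2-Q1 (0.83). Closest to Slc39a5 were Slc36a2 (0.17), Sult3a1 (0.34) and Rny3 (0.35), which are likewise high at E18 and at or near 0 in adults; Slc36a2 was at 70.0 and 40.0 TPM at E18 and listed at 0 in both normal fed samples. Closest to Slc39a14 were Plg (0.25), Psd3 (0.25) and Gpld1 (0.29), to Slc30a1 Aars (0.12), Mfn2 (0.14) and Gfm2 (0.14), to Slc30a10 Slc25a38 (0.43), Gba2 (0.47) and Srm (0.47), and to Atp7b Stat3 (0.15), Slc36a1 (0.16) and Man2a2 (0.16).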
